A study of Mus musculus with 4 samples.

Results

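The genes described here are 32 genes of splenic macrophages, above all of the red pulp macrophage, read in RNA sequencing libraries of regulatory T cells (Treg) sorted from mouse spleen. They were found by gene symbol among 38924 Ensembl gene identifiers, and all 32 were in the count table and passed the filter on low counts. The choice of genes rested on what they are known for and in part on their large spread between the libraries of each group, so that spread is given here as a description with no test. Treg are CD4+ T cells marked by the factor Foxp3, and they restrain immune responses. The study compared resting Treg, labelled rTreg, with activated Treg, labelled aTreg, with 2 libraries of each from independent animals. For both populations the labels print one and the same gate, CD4+Foxp3+ with identical further surface markers, and name the spleen as source. No allele, treatment, strain or age is named for either group in the labels used here, although the series' title concerns graded Foxo1 activity. Low-input libraries were made with the SMART-seq v4 kit, which amplifies cDNA by PCR without molecular identifiers, so counts are reads and the counting intervals given below cover counting error only.

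Red pulp macrophages are the resident phagocytes of the spleen's blood-filled cords. They take up old red blood cells, break down heme with heme oxygenase, and return the iron to the blood through the exporter ferroportin. The transcription factor Spi-C is required for their development, and the adhesion molecule Vcam1, the scavenger protein Cd5l, the C1q chains of complement and receptors for dying cells are among the genes they are known for. Most of these genes are not known as genes of T cells.

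The headings of the count table do not tell apart the 2 columns of a group, so these columns were assigned to groups only and carry the letters A and B within each group, as resting A or activated B. A letter is a name and pairs no library of one group with one of the other. Libraries held between 20282062 and 31851982 counts. Values are CPM, counts scaled to a common library size after correction by trimmed mean of M values (TMM), and 1 CPM stood for 20.3 to 30.6 counts. The T cell genes that define the label were detected in every library. Cd3e was at 1439, 1708, 1457 and 2140.3 CPM and Foxp3 at 38.8, 35.1, 37.5 and 36.7 CPM, with the resting pair first and A before B. The same order is used wherever 4 values stand in a row. In such bulk samples, fewer cells of a type and less RNA per cell cannot be told apart.

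Promoter letters are shown for 4 members so that the sequence can be set beside the levels: C1qb, Cd5l and Treml4, which were high in both A libraries, and Axl, which was not. Each line gives the 250 bases before the RefSeq start on GRCm38.p6, 5′ to 3′ on the gene's strand. C1qb is at chr4:136886201-136886450 (minus strand), Cd5l at chr3:87357631-87357880 (plus strand), Treml4 at chr17:48264045-48264294 (plus strand) and Axl at chr7:25788734-25788983 (minus strand). Capitals mark GAGGAA, a core bound by the macrophage factors PU.1 and Spi-C, read on both strands (its other strand reads TTCCTC), and in C1qb also a match to TGACNNNGC, a core bound by Nrf2 and Maf proteins.
C1qb: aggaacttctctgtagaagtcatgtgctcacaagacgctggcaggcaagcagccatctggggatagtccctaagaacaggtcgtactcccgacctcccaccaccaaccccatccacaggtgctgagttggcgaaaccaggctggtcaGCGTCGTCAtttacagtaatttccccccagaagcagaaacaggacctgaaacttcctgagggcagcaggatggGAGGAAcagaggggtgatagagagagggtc
Cd5l: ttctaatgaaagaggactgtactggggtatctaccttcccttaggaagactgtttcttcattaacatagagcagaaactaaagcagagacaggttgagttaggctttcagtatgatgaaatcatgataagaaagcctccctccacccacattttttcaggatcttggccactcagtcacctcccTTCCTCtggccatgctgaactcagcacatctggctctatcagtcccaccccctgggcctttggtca
Treml4: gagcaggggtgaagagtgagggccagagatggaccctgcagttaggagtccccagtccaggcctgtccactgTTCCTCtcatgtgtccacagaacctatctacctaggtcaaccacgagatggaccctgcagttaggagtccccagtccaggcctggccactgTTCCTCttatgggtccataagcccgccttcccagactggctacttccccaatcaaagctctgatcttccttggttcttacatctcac
Axl: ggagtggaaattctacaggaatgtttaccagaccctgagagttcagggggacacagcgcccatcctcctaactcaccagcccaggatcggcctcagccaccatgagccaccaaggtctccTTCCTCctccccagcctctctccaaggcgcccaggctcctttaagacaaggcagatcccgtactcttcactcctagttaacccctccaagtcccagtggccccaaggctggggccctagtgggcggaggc
In C1qb the capitals form separate runs, 1 for each motif, and do not overlap.

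Of the 32 members, 21 had a promoter entry, with 28 windows in all because some genes have several starts. GAGGAA stood in 15 of the 28 windows (53.6%), from 13 genes, and in 23.3% of all 32851 windows of the same length. TGACNNNGC stood in 1 of 28 (3.57%), against 10.2% of all windows, and TCACGTGA, the element of lysosomal gene promoters, in 0, against 0.785%. The overlapping windows of Fcgr3 held the same GAGGAA site, and each window was counted. Axl, which did not share the members' pattern across libraries, held GAGGAA too. Spic, Mertk and Cd163, which shared that pattern, did not hold GAGGAA. Vcam1, Slc40a1, Hmox1, Adgre1 and Csf1r were among the members with no promoter entry. These matches describe letters and no binding was measured.

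Levels of the macrophage genes lay further apart between the libraries of a group than between the groups. Summed over the 32 genes, resting A held 1478 CPM and resting B 158, and activated A held 1641 and activated B 349. These sums were 0.147%, 0.0152%, 0.171% and 0.0349% of all counts. One library of each group was thus high and the other low. The median level of a member was 23.04, 0.555, 19.5 and 2.39 CPM, and 19 of 32 members lay below 1 CPM in resting B and 10 in activated B, against 2 and 1 in the A libraries. The median ratio of A to B was 34.4-fold over 31 members in resting Treg and 11.5-fold over 32 in activated Treg, with a member at 0 counts set to the limit of 3 counts. Lyz1 gave no resting ratio because both libraries lay under that limit. Over all 14235 genes tested the median log2 ratio was 0 in resting and 0.026 in activated Treg, after adding 0.5 CPM.

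All 32 members were higher in resting A than in resting B (50% of all genes tested), and 31 of 32 in activated A than in activated B (51.7% of all genes), with Axl as the exception. At least 8-fold more in A was seen for 26 members in resting Treg (1.61% of all genes), for 19 in activated Treg (0.892%) and for 17 in both (0.464%). At 4-fold the count in both groups was 26 (1.11% of all genes) and at 16-fold 7 (0.176%), and 0 members were 8-fold higher in B of both groups (0.0492%). Because the members were chosen partly for this spread, nothing is read from these shares. The authors' regularized log table, whose columns carry the replicate numbers, had its high values in replicate 1 of both groups: Vcam1 was at 12.2 and 7.07 in resting replicates 1 and 2 and at 11.9 and 7.97 in activated replicates 1 and 2, on the regularized log2 scale.

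**Figure D1:**
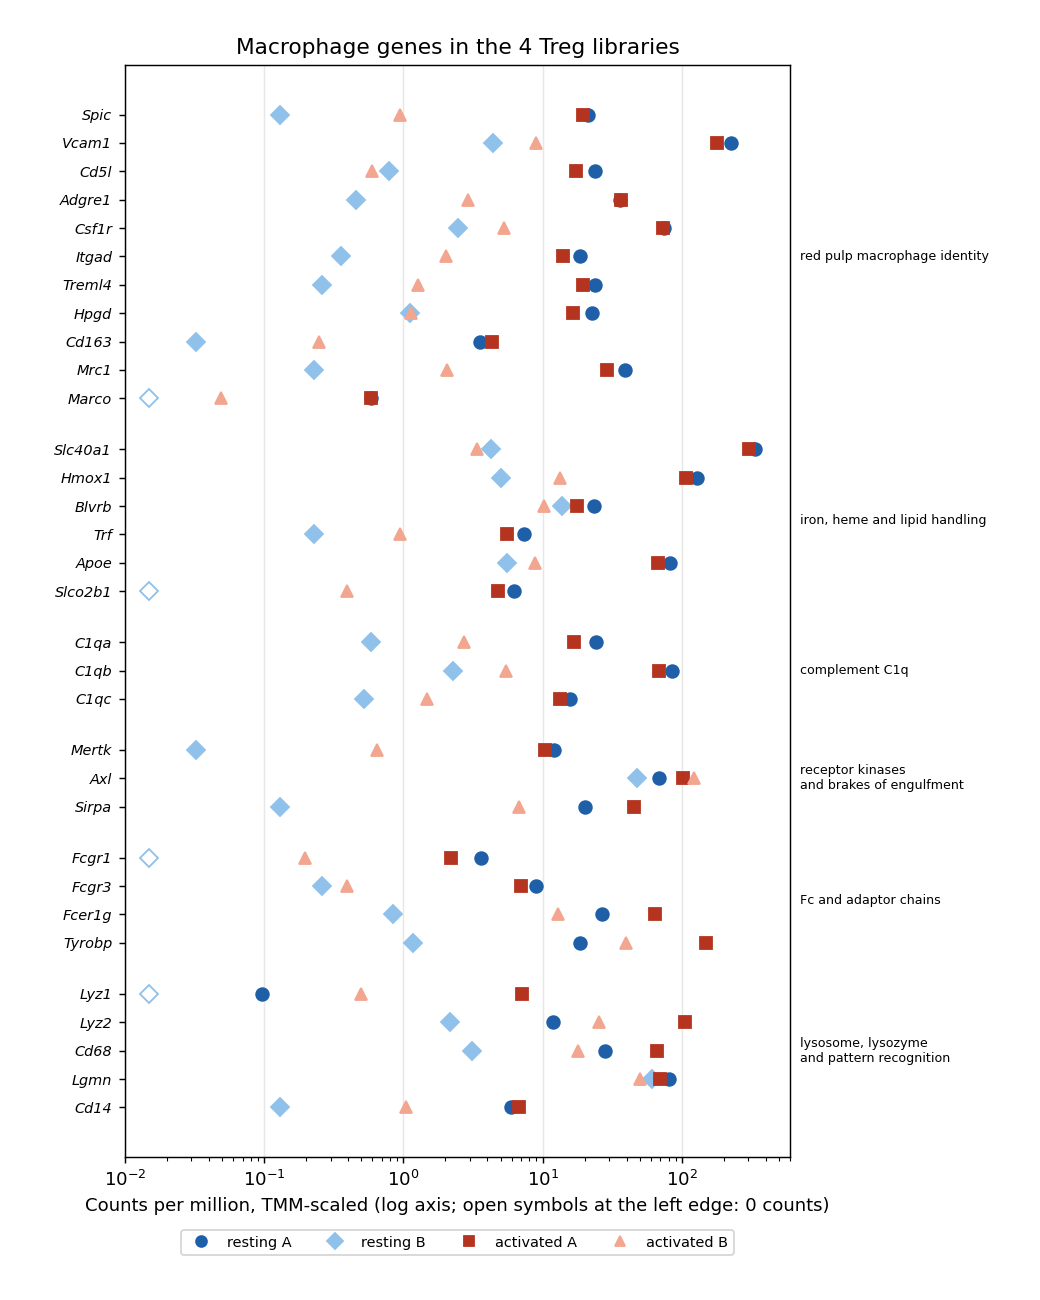
Level of each macrophage gene in CPM (log axis) in the 4 libraries, grouped by role, with 1 symbol per library and open symbols for 0 counts. For most genes resting A and activated A sit together at the right and resting B and activated B to the left; Axl, Blvrb and Lgmn have all 4 symbols close together.

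Of the 11 genes that define red pulp or other tissue macrophages, Spic, which encodes the factor Spi-C, was at 21.3 CPM in A and 0.131 in B of resting Treg and 19.5 in A and 0.938 in B of activated Treg. Resting B held only 4 Spic counts against 438 in resting A. The A library was higher by 163-fold (95% counting interval 63.2 to 601) in resting and by 20.8-fold (95% counting interval 13.2 to 34.8) in activated Treg, and the groups overlapped. Vcam1, the adhesion molecule that marks these macrophages, was at 224 CPM in A and 4.41 in B of resting Treg and 179 in A and 8.93 in B of activated Treg. It too was low in both B libraries, by 50.8-fold (95% counting interval 42.8 to 60.7) in resting Treg and 20.01-fold (95% counting interval 17.3 to 23.3) in activated Treg. Vcam1 lies on chromosome 3 from 116109949 to 116129688, minus strand (mm10, GENCODE M21), and Spic on chromosome 10 from 88674772 to 88685015, minus strand.

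Cd5l, a secreted scavenger protein of tissue macrophages, was at 23.9, 0.783, 17.3 and 0.592 CPM. Its A to B ratios were close to each other in the groups, 30.5-fold and 29.3-fold, with overlapping counting intervals. Adgre1, which encodes the macrophage antigen F4/80, was at 35.7, 0.457, 36.6 and 2.91 CPM. Csf1r, the receptor for the macrophage growth factor Csf1, was at 74.2, 2.48, 72.8 and 5.23 CPM. Both A libraries nearly matched for these genes, and activated B lay above resting B. Itgad, the integrin chain alpha D, was at 18.5, 0.359, 13.9 and 2.02 CPM. For Treml4, a receptor that binds dead cells, the levels were 23.8, 0.261, 19.5 and 1.28 CPM. Mrc1, the mannose receptor, was at 38.8, 0.229, 28.9 and 2.07 CPM. All 3 were lowest in resting B, and Mrc1 had the largest resting ratio of the 11. Exons of Itgad overlap exons of Cox6a2 on the other strand, a gene of plasmacytoid dendritic cells at 0.438, 0.0653, 30.1 and 8.09 CPM. Of the 50-base words of Itgad transcripts, 19.7% also occur in other genes, mostly Itgax and Gm17831. The integrin gene Itgax was at 1.94, 0.522, 22.9 and 8.78 CPM. Csf1r overlaps Hmgxb3 on the other strand, and 14.3% of its words also occur there. The kit does not mark strand, so reads from partners on the other strand cannot be told apart.

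Hpgd, an enzyme that inactivates prostaglandins, was at 22.6, 1.11, 16.6 and 1.14 CPM. Its B libraries lay close together in CPM, at 34 and 23 counts in libraries of unequal depth. Cd163, the scavenger receptor for haemoglobin, was low throughout at 3.55, 0.0326, 4.32 and 0.247 CPM, which was 1 count in resting B. Marco, a scavenger receptor of marginal zone macrophages rather than of the red pulp, was barely detected, with 12, 0, 18 and 1 counts. The 11 genes thus shared 1 direction but not 1 size. In resting Treg their A to B ratios ran from 5.96-fold (Marco, with resting B set to 3 counts) to 169.8-fold (Mrc1). In activated Treg they ran from 6.89-fold (Itgad) to 29.3-fold (Cd5l).

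The iron and heme genes held members far apart between libraries and also one that hardly varied. Slc40a1 encodes ferroportin, the iron exporter, and was at 334 CPM in A and 4.24 in B of resting Treg and 300.5 in A and 3.36 in B of activated Treg. The A libraries were higher by 78.8-fold (95% counting interval 66.2 to 94.4) and 89.5-fold (95% counting interval 70.6 to 115), and Slc40a1 had the largest ratio of all members in activated Treg. Slc40a1 lies on chromosome 1 from 45908068 to 45926523, minus strand. Hmox1, the heme oxygenase that opens the heme ring, was at 129 CPM in A and 5.03 in B of resting Treg and 106 in A and 13.3 in B of activated Treg. It lay lowest in resting B, and the A to B ratio was 25.7-fold in resting and 8.01-fold in activated Treg. Blvrb, a biliverdin reductase that acts after heme oxygenase, was at 23.5 CPM in A and 13.8 in B of resting Treg and 17.7 in A and 10.2 in B of activated Treg. Its ratios were only 1.70-fold and 1.74-fold, and it stayed above 10 CPM in each library.

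Apoe, the lipid-carrying apolipoprotein E, was at 81.8, 5.52, 67.3 and 8.78 CPM, with A to B ratios of 14.8-fold and 7.66-fold. Slco2b1, an organic anion transporter of macrophages, was at 6.22, 0, 4.78 and 0.395 CPM. Slco2b1 had 128 counts in resting A and 0 in resting B, so resting A was at least 63.5-fold higher, taking 3 counts as the limit for that library. Trf, the iron carrier transferrin, was at 7.34, 0.229, 5.56 and 0.938 CPM; 59.4% of its 50-base words also lie in other genes, mostly the overlapping Gm20425, so its counts are uncertain. Hmox1 lies on chromosome 8 from 75093621 to 75100589 and Apoe on chromosome 7 from 19696109 to 19699188.

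The C1q chains, which together form the recognition unit of the classical complement pathway, shared 1 order of libraries. C1qa was at 24.01, 0.588, 16.7 and 2.71 CPM. C1qb, whose promoter is printed above, was at 84.3, 2.29, 68.3 and 5.48 CPM. C1qc was at 15.8, 0.522, 13.3 and 1.48 CPM. In each of the 3 genes resting A was highest, followed by activated A and activated B, with resting B lowest. Their resting ratios of A to B lay between 30.2 and 40.9-fold and their activated ratios between 6.16 and 12.5-fold. The 3 genes are neighbours on the minus strand of chromosome 4, from 136880129 (C1qb) to 136898803 (C1qa).

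**Figure D2:**
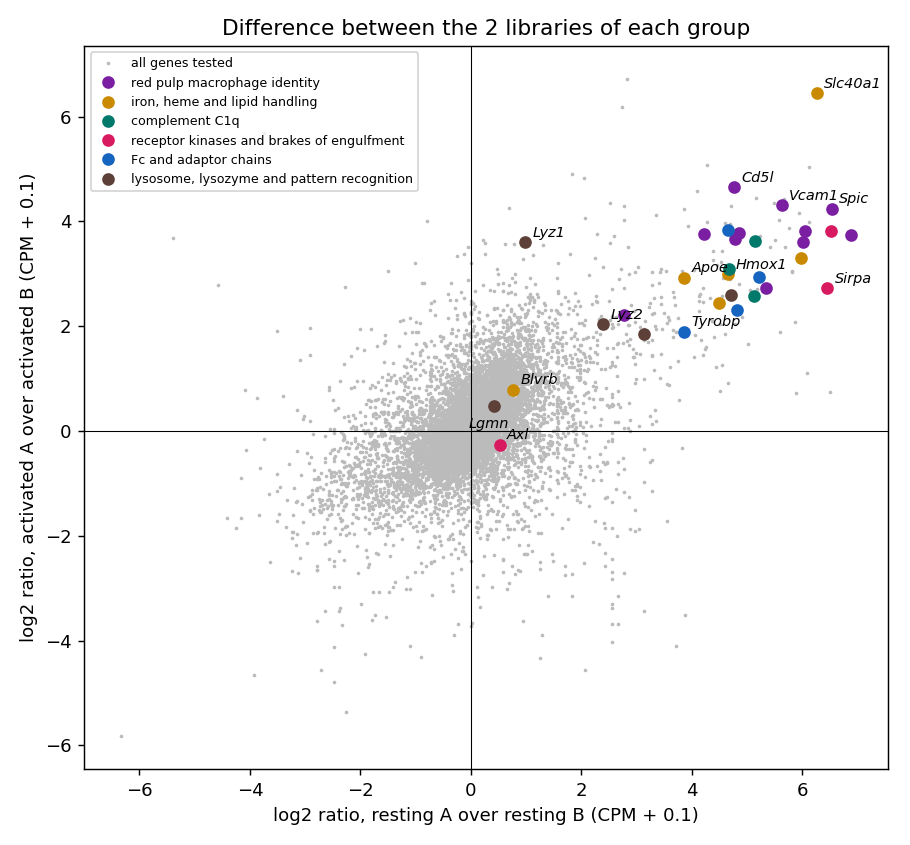
Log2 ratio of library A to library B in resting Treg (horizontal) against that in activated Treg (vertical), after adding 0.1 CPM, for all 14235 genes tested (grey) and the 32 members (coloured by role). Most members sit in the upper right, away from the grey cloud; Axl, Blvrb and Lgmn sit within it, and Slc40a1 is the member highest on the vertical axis.

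The receptors of engulfment did not share 1 pattern. Mertk, a receptor kinase through which macrophages bind dying cells, was at 12.1 CPM in A and 0.0326 in B of resting Treg and 10.3 in A and 0.642 in B of activated Treg. Resting B held 1 Mertk count against 248 in resting A, a ratio of 369 with a counting interval from 65.7 to 14645. Axl, the related kinase, was at 68.5 CPM in A and 47.6 in B of resting Treg and 101 in A and 121 in B of activated Treg. Both B libraries held Axl at levels like those of the A libraries, and activated B was the highest of the 4. Both activated libraries lay above both resting ones, with a log2 fold change of 0.94 ± 0.24 (SE), and Axl did not pass (edgeR adjusted p = 0.363, DESeq2 adjusted p = 0.0533). Sirpa, the receptor for the do-not-eat signal Cd47, was at 20.1 CPM in A and 0.131 in B of resting Treg and 44.9 in A and 6.71 in B of activated Treg, lowest in resting B and highest in activated A.

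The Fc receptor and adaptor genes divided by chain. Fcgr1 and Fcgr3, which bind antibody, were low in both B libraries like the identity genes. Fcgr1 was at 3.60, 0, 2.19 and 0.197 CPM. Fcgr3 was at 8.99, 0.261, 6.94 and 0.395 CPM. With 0 Fcgr1 counts in resting B, resting A was at least 36.7-fold higher with 3 counts as the limit. Fcgr3 shares 9.58% of its 50-base words with Fcgr2b. The signalling adaptors were highest in activated A instead: Fcer1g, the common Fc receptor gamma chain, was at 26.8 CPM in A and 0.849 in B of resting Treg and 64.3 in A and 12.8 in B of activated Treg. Tyrobp, which encodes the adaptor DAP12, was at 18.5 CPM in A and 1.18 in B of resting Treg and 148 in A and 39.8 in B of activated Treg. For Tyrobp both activated libraries lay above both resting ones, although by edgeR the log2 fold change of 3.26 ± 1.32 (SE) did not pass (adjusted p = 0.580).

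Among lysosomal and sensing genes, the lysozymes had the largest log2 fold changes. Lyz2, the lysozyme of myeloid cells, was at 11.8 CPM in A and 2.15 in B of resting Treg and 105 in A and 25.6 in B of activated Treg, higher in both activated libraries than in either resting one, and had a log2 fold change of 3.23 ± 1.03 (SE) that did not pass (edgeR adjusted p = 0.450). Lyz1, the lysozyme known from Paneth cells, had 2 and 0 counts in resting A and B and 218 and 10 in activated A and B. It was the 1 member that DESeq2 called (adjusted p = 0.00684, against 0.400 by edgeR), on resting counts under the limit of 3. Lyz1 passed the filter on low counts only through the activated libraries, where it was high, so its call and its unadjusted p are no support for a difference. The 2 genes lie next to each other on chromosome 10 and share 195 of 1214 50-base words of Lyz1 (16.1%), so the split of reads between them is uncertain.

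Cd68, a lysosomal membrane protein of phagocytes, was at 28.00 CPM in A and 3.10 in B of resting Treg and 65.8 in A and 18.1 in B of activated Treg. Activated A was highest and resting B lowest, and the groups overlapped. Lgmn, the lysosomal protease legumain, was at 80.9 CPM in A and 60.5 in B of resting Treg and 69.6 in A and 49.9 in B of activated Treg, with A to B ratios of 1.34-fold and 1.39-fold, so it was present in all 4 libraries at similar levels. Cd14, the co-receptor for bacterial lipopolysaccharide, was at 5.93, 0.131, 6.80 and 1.04 CPM, low in both B libraries like the identity genes.

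Levels can be compared between genes only per length, here as CPM per kilobase of exon. On that scale the highest members in resting A were C1qb (77.5), Hmox1 (73.8), Apoe (38.2) and Slc40a1 (37.1). In resting B they were Lgmn (26.1), Axl (9.45), Blvrb (4.96) and Hmox1 (2.87). In resting B the leading 3 were thus the members whose levels varied little across libraries. In activated A the order began with Tyrobp (222), Lyz2 (79.7), Fcer1g (73.6) and C1qb (62.8), and in activated B with Tyrobp (59.6), Axl (24.1), Lgmn (21.5) and Lyz2 (19.4).

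Within each library the members were also set against the summed counts of the 11 identity genes, which were 10014, 314, 12496 and 515. This ratio does not depend on library scaling, and its precision in the B libraries is limited by those low sums. C1qb was 17.3, 22.3, 16.7 and 21.6% of the identity sum and Fcgr3 1.85, 2.55, 1.70 and 1.55%, the latter on 8 counts in each B library. C1qc was 3.24, 5.10, 3.26 and 5.83%, and C1qa, at 4.93, 5.73, 4.09 and 10.7%, was highest in activated B. The proportion of C1qb to the identity genes varied less across libraries than its level did. C1qb and the identity genes were chosen partly for their spread within groups. A steadier proportion can follow from that choice, so nothing is read from it. Among the identity genes themselves, Vcam1 made up 45.99, 42.99, 43.7 and 35.1% of the sum and Csf1r 15.2, 24.2, 17.8 and 20.6%. Slc40a1 was 68.7, 41.4, 73.5 and 13.2%, lower in activated B than elsewhere.

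Several members were higher relative to the identity genes in both activated libraries than in both resting ones. The identity genes were chosen partly for their spread within groups, so nothing is read from this order. Tyrobp was 3.80, 11.5, 36.2 and 157% of the identity sum, Fcer1g 5.51, 8.28, 15.7 and 50.5% and Sirpa 4.13, 1.27, 10.99 and 26.4%, and for each gene the activated libraries exceeded the resting ones. Lyz2, at 2.42, 21.02, 25.7 and 101%, was ordered likewise, and Cd68, at 5.75, 30.3, 16.1 and 71.1%, overlapped between the groups. The order was not particular to these genes. Cd14 (1.22, 1.27, 1.66 and 4.08%), Mertk (2.48, 0.318, 2.521 and 2.524%) and Lyz1 shared it. Among the identity genes themselves, Adgre1 (7.34, 4.46, 8.95 and 11.5%), Cd163 and Marco shared it too. Blvrb (4.83, 135, 4.34 and 40.2%), Axl (14.1, 464, 24.7 and 477%) and Lgmn (16.6, 590.4, 17.03 and 197%) were far higher relative to the identity genes in both B libraries. With 2 libraries against 2 an exact permutation test cannot go below p = 0.333, so none was run.

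**Figure D3:**
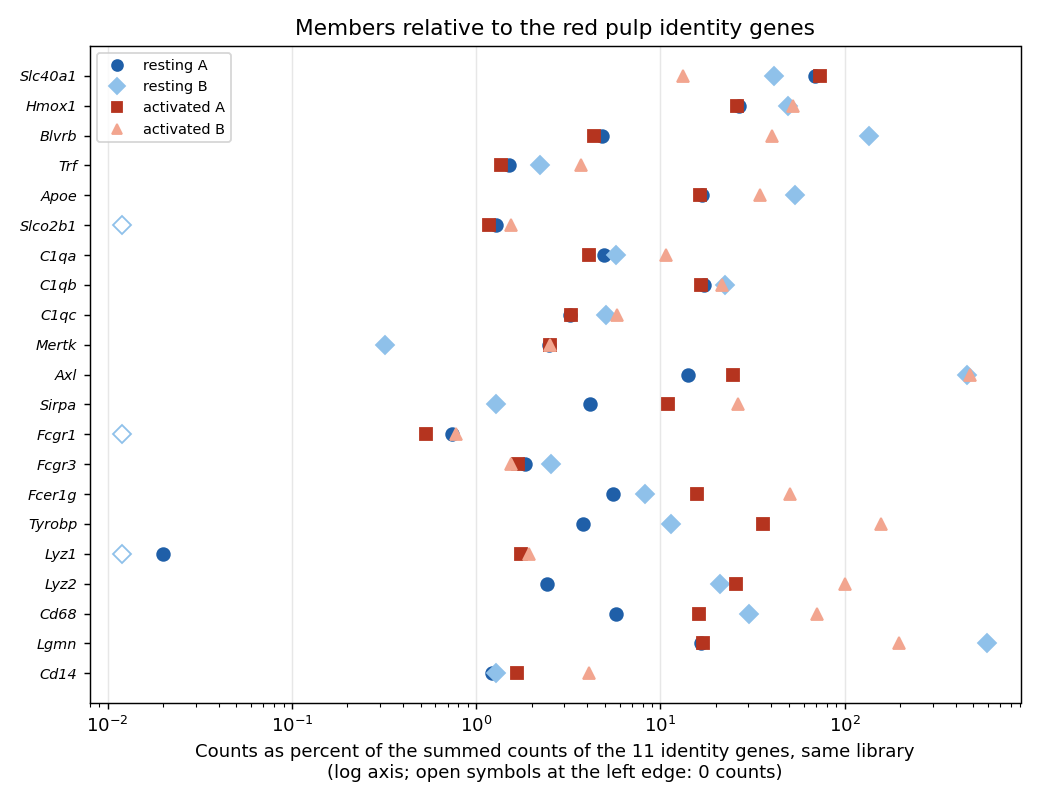
Counts of each member outside the identity list as a percent of the summed counts of the 11 identity genes in the same library (log axis), with 1 symbol per library and open symbols for 0 counts. C1qb and Fcgr3 have their symbols close together, C1qa lies further right in activated B, Tyrobp, Fcer1g and Sirpa have both activated symbols to the right, and Axl, Blvrb and Lgmn have both B symbols far to the right.

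With all 4 libraries, none of the macrophage genes passed the main test between activated and resting Treg. Over all 14235 genes tested, edgeR's quasi-likelihood test with Benjamini-Hochberg adjustment called 0 of 32 members higher and 0 lower in activated Treg (0% and 0% of all genes), with a lowest adjusted p of 0.363. At an unadjusted p under 0.05 it counted 3 members higher, Axl, Lyz1 and Lyz2 (6.3% of all genes), and 0 lower (2.61%). DESeq2 called 1 higher (2.28% of all genes) and 0 lower (0.829%), and limma-voom called 0; DESeq2 gave Marco no adjusted p. The members' median log2 fold change was -0.16, against -0.0072 over all genes, and 12 of 32 lay above 0. Both activated libraries lay above both resting ones in 4 members, Axl, Tyrobp, Lyz1 and Lyz2 (19.8% of all genes), and below in 0 (17.4%).

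For the red pulp genes proper the fold changes were small beside their errors: -0.053 ± 1.999 (SE) for Spic, -0.28 ± 1.86 (SE) for Vcam1, -0.15 ± 2.21 (SE) for Slc40a1, -0.16 ± 1.52 (SE) for Hmox1 and -0.22 ± 1.69 (SE) for C1qb, all on the log2 scale. In CPM, Vcam1 was at 114 ± 155 (SD, n = 2) in resting and 93.8 ± 120.1 in activated Treg, so the SD exceeded the mean in both groups. The spread within groups was among the reasons these genes were chosen, and it enters the error of this test.

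The fit was repeated without each library in turn. Because the members were chosen partly for their spread within groups, leaving out the high resting library raises most of their fold changes by that choice, so the count is given as a description and supports nothing. Without resting A, edgeR called 26 of 32 members higher (2.08% of all genes in that fit) and 0 lower (0.224%), and the median log2 fold change was 4.16. It was -1.09 when resting B was left out, -2.43 for activated A and 0.70 for activated B, and 0 members were called in these 3 fits. Activated A over resting A alone gave -0.23 and activated B over resting B alone 1.77, values with no test. With no filter on low counts, edgeR called 7 members higher, Axl, Cd68, Fcer1g, Lyz1, Lyz2, Sirpa and Tyrobp (2.56% of the genes in that fit), and 0 lower (0.672%). With the replicate numbers as a block, limma on the authors' regularized log2 values called the same 7 members higher (7.21% of all genes) and 0 lower (3.69%). None of these 7 was listed under the red pulp identity, iron or C1q genes. The block takes the difference between replicate numbers out of the error, and the members were chosen partly for their spread within groups. Lyz1 entered the block fit only through the activated libraries. Both fits read the same 4 libraries, so these calls are a description and support no difference.

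**Figure D4:**
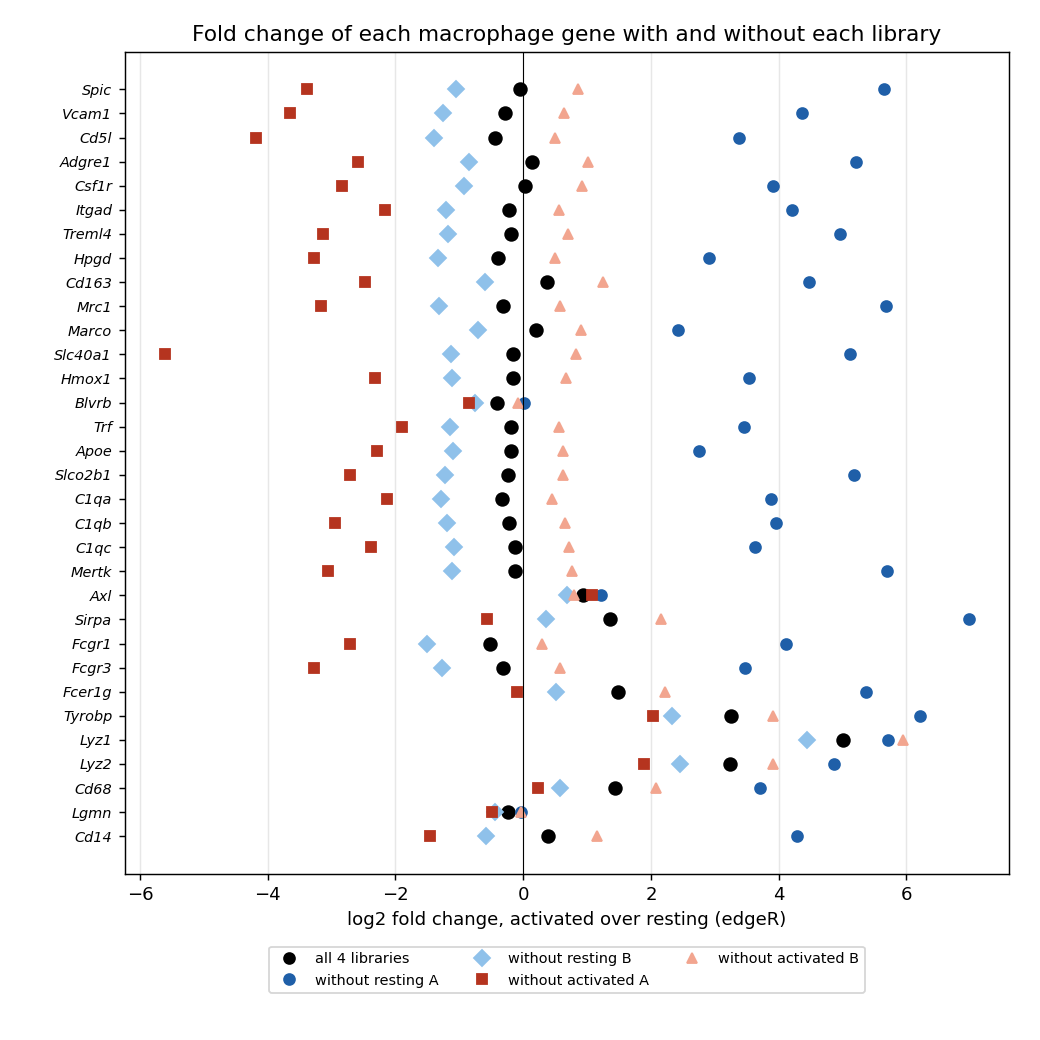
Log2 fold change of each macrophage gene, activated over resting, from all 4 libraries (black) and without each library in turn (coloured by the library left out). For most genes the black point is near 0, the value without resting A is far to the right and the value without activated A to the left; Axl, Tyrobp, Lyz1, Lyz2 and Cd68 stay to the right of 0 throughout.

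Other genes of iron and heme handling, a list of 24 with 21 tested, did not share the split as a sum. The list summed to 2968 CPM in A and 2639 in B of resting Treg and 3228 in A and 3038 in B of activated Treg. The genes with the highest CPM were Fth1 and Ftl1, the ferritin chains, at 1449, 1207, 1771 and 1625 CPM and 743, 678, 719 and 706 CPM, Nfe2l2, the stress factor Nrf2, at 123, 87.6, 88.5 and 57.5 CPM, and Pcbp2, an RNA-binding protein that also carries iron, at 85.6, 104, 74.7 and 98.6 CPM. Hmox2 and Blvra, the other heme oxygenase and biliverdin reductase, were at 76.5, 82.03, 63.01 and 77.8 CPM and 75.1, 93.4, 77.7 and 94.9 CPM, with no A library above both B libraries. Slc11a1, the phagosomal metal transporter Nramp1, named here after its values were seen, was at 19.5, 0.424, 18.9 and 2.52 CPM and was split like the members. By edgeR over all genes 0 were called higher and 0 lower, 0 and 1 had an unadjusted p under 0.05, and by DESeq2 0 and 0.

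Of 24 further complement and engulfment genes 14 were tested. Cd47, at 431, 405, 353 and 274 CPM, and Cr1l, a complement regulator, at 119, 123, 112 and 116 CPM, had A to B differences far smaller than those of most members, as had the integrin chain Itgav at 31.5, 43.3, 48.7 and 58.5 CPM. Cfp, which encodes properdin, was at 65.7, 3.46, 89.5 and 16.1 CPM, low in both B libraries. Of 15 genes around the Fc receptors and DAP12, 10 were tested: the kinase Lyn was at 13.5, 3.20, 52.2 and 12.8 CPM and the growth factor Csf1 at 10.01, 21.9, 44.6 and 80.6 CPM, and the integrin chains Itga4 and Itgb1, which pair as the receptor for Vcam1, at 466, 400.1, 649 and 363 CPM and 151, 499, 328 and 377 CPM. Csf1 was lowest in resting A, unlike its receptor gene Csf1r. EdgeR called 0 genes of these 2 lists in either direction, and genes with an unadjusted p under 0.05 numbered 2 and 2 upward and 0 and 0 downward. Counts by DESeq2 were 2 and 2 higher and 0 and 0 lower.

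Transcription factors of macrophages were mixed. Id3, which red pulp and other macrophages share with Treg, was at 269.7, 433, 215 and 342 CPM, Maf at 35.2, 91.7, 192 and 245 CPM, Irf8 at 29.99, 34.8, 271 and 109.6 CPM and Zeb2 at 5.01, 0.653, 23.9 and 7.40 CPM, so these 4 did not share the order of libraries seen for the identity genes. EdgeR called 0 of 11 tested (at an unadjusted p under 0.05, 4 higher and 0 lower), and by DESeq2 2 were called higher and 0 lower. Genes of marginal zone and other macrophages summed to 47.7 CPM in A and 8.59 in B of resting Treg and 39.4 in A and 13.7 in B of activated Treg. They were led by the lectin Clec4n at 16.6, 0.196, 13.6 and 1.58 CPM, Ms4a7 at 3.40, 0.131, 4.38 and 0.197 CPM, the proteoglycan Sdc3 at 20.6, 5.81, 9.52 and 2.71 CPM and Gpnmb at 2.33, 2.25, 3.60 and 5.38 CPM; edgeR and DESeq2 called 0 of 7 tested, with 0 at an unadjusted p under 0.05. Of 18 lysosomal genes, all tested, Ctsb, Psap, Npc2 and Ctsd had the highest CPM, at 882, 686, 1404 and 1263 CPM, 829, 624, 1351 and 706 CPM, 615, 518, 388 and 411 CPM and 540.2, 395, 525 and 517 CPM. These were high in every library; edgeR called 0, with unadjusted p under 0.05 for 5 higher and 1 lower, and by DESeq2 5 were called higher and 0 lower.

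Markers of other spleen cells were read beside these values. The list of 11 red cell and platelet genes summed to 26.3 CPM in A and 1.44 in B of resting Treg and 14.6 in A and 2.91 in B of activated Treg, in the A libraries mostly from globins, which were low in both B libraries: the globin gene Hbb-bs had 288, 4, 214 and 6 counts and Hba-a1 82, 4, 90 and 8 counts. Globin genes have close copies, so single values are uncertain. The platelet gene Itga2b, at 12, 15, 1 and 16 counts, and the red cell factor Klf1, at 0, 2, 8 and 4 counts, did not share that order. The part of red cell transcripts in the members' values was not tested. Ppbp was at 0 in every library and 2, 5, 4 and 3 of the 11 were at 0. Dendritic cell lists were instead higher in activated Treg and highest in activated A, where Tyrobp, Fcer1g, Lyz2, Cd68 and Sirpa were highest too. The 9 plasmacytoid dendritic cell genes summed to 172 CPM in A and 177 in B of resting Treg and 955 in A and 330.1 in B of activated Treg, with Siglech at 0.778, 0.261, 279.7 and 58.7 CPM, and 1 of them, Klk1, was at 0 in resting B. The 10 conventional dendritic cell genes summed to 105 CPM in A and 129 in B of resting Treg and 346 in A and 214 in B of activated Treg, with Cd209a at 0.486, 0.457, 76.6 and 14.5 CPM, Batf3 was at 0 in resting A, and Clec9a and Clec10a were at 0 in resting B. Their part in the values of the shared myeloid genes was not tested.

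The 15 genes of monocytes and neutrophils summed to 20.2 CPM in A and 87.7 in B of resting Treg and 259 in A and 161 in B of activated Treg, with Ly6c2 at 3.26, 6.95, 123 and 33.1 CPM and Ccr2, which T cells also express, at 13.03, 76.7, 123 and 119.9 CPM. Several neutrophil genes were at or near 0, such as S100a8 with 0, 0, 20 and 0 counts and Ly6g with 0, 0, 1 and 0 counts. In the same list Csf3r had 41, 0, 95 and 4 counts and was split like the members. Ltf had 2, 0, 38 and 11 counts. B cell genes summed to 1244 CPM in A and 1137 in B of resting Treg and 4696 in A and 3124 in B of activated Treg, mostly from Cd74 and Ighm. Endothelial and stromal genes summed to 400.3 CPM in A and 364 in B of resting Treg and 242 in A and 211 in B of activated Treg, mostly from Pecam1, which T cells express. Cdh5 and Kdr, endothelial genes, were at 0.0486, 0.326, 7.20 and 3.60 CPM and 0.0486, 0.0653, 5.76 and 2.32 CPM, higher in both activated libraries. The sinus endothelial gene Stab2 was at 4.91, 0.359, 4.12 and 0.691 CPM, split like the members. The 11 T cell and sort genes summed to 10666 CPM in A and 11193 in B of resting Treg and 9457 in A and 10534 in B of activated Treg. EdgeR called 0 genes of these lists; at an unadjusted p under 0.05 it counted, for the erythroid, plasmacytoid, conventional dendritic, monocyte, B cell, endothelial and T cell lists in this order, 0, 7, 7, 2, 3, 3 and 2 higher and 0, 0, 0, 0, 1, 1 and 1 lower. DESeq2 called 0, 7, 4, 1, 1, 2 and 1 higher and 0, 0, 0, 0, 1, 1 and 1 lower.

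**Figure D5:**
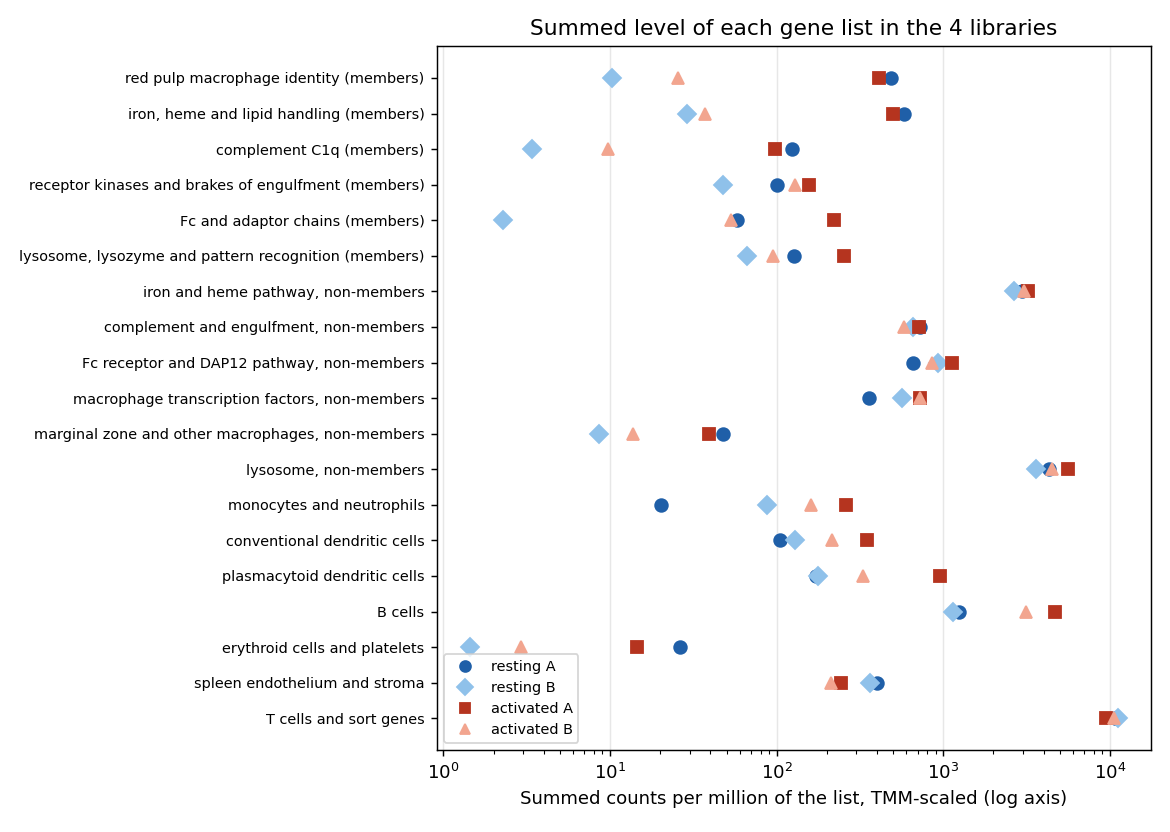
Summed CPM (log axis) of each gene list in the 4 libraries, 1 symbol per library. The identity, iron and C1q members, the marginal zone list and the red cell and platelet list have both A libraries at the right, the dendritic cell lists have both activated libraries at the right, and the T cell list is even.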

How the data were processed

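Sorted spleen Treg were profiled by RNA sequencing, 2 resting and 2 activated libraries. The tools STAR 2.4.0c, featureCounts and DESeq2 and the build mm10 stand in the submitters' processing notes, with no roles. The authors deposited raw counts per Ensembl gene and regularized log2 values from DESeq2, per the file headers and names; that scale pulls low counts towards the mean of their gene. Annotation, strand setting and read filters: not given in the sources used here.

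Genes were kept by filterByExpr (minimum count 10, minimum total 15), which left 14235, scaled by TMM (factors 0.962 to 1.04) and tested with edgeR 4.0.16 (R 4.3.3, quasi-likelihood, group alone, prior count 2, Benjamini-Hochberg adjustment over all genes, threshold 0.05). Standard errors are approximate and follow from edgeR's F statistic (log2 fold change divided by the root of F). The replicate numbers were not used, since the labels describe independent animals. There were 2 residual degrees of freedom and 3.10 prior ones, and replicates varied by a coefficient of 0.352. Ratios between 2 libraries carry exact Clopper-Pearson intervals at 95%. DESeq2 1.42.0, limma 3.58.1, other scalings, no filter, another prior count and leaving out each library were alternatives. The procedure was tested on simulated data.

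Symbols came from GENCODE M21 (mm10); 37607 of 38924 identifiers matched. Promoters are from RefSeq, GRCm38.p6. The text names all members, genes with the highest mean CPM among the up to 4 per other list, and genes past the threshold. It also names a few chosen after their values were seen. This is said there for Slc11a1 and holds also for Hmox2, Blvra, Cox6a2, Clec9a, Clec10a, Klk1, Klf1, Itga2b, Ppbp, S100a8, Ly6g, Csf3r, Ltf, Itgax, Batf3 and Foxp3. Members and lists were chosen with earlier results of these data known. Not every gene that rule takes is reported here.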

Additional observations from a re-analysis of the deposited data

How the results depend on the processing

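DESeq2 size factors, library totals and another prior count left the number of members called at 0, and the direction of each member, except Spic, which turned to 0.013 with library totals. DESeq2 called 1 member higher and edgeR without a filter 7, with 7 at an unadjusted p under 0.05. Limma-voom called 0. The median log2 fold change of -0.16 turned to 1.54 by limma-voom, to 0.46 by limma on the regularized log values and to 1.77 without both A libraries, a choice made after seeing the data. A fold of mean counts is set mostly by the high library of a group, whereas a difference of mean logs weighs both alike. With the replicate number as a block, limma on the regularized log values gave the same median of 0.46 and called 7 members higher, the same 7 as edgeR without a filter, and 0 lower, with 9 higher at an unadjusted p under 0.05; without the block it called 0 and counted 4. On that table the deviations of the 2 samples numbered 1 from their group means correlated with r = 0.652 across genes, which are not replicates. With 2 pairs the numbers are not shown to pair animals. The members were chosen partly for their spread within groups, so the calls with the block support no difference. The size of the median log2 ratio between the libraries of a group was 5.11 in resting and 3.52 in activated Treg from counts and 3.60 and 2.44 on the regularized log scale, which shrinks low counts. With a limit of 4-fold or 16-fold in place of 8-fold, both added later, 26 or 7 members in place of 17 were higher in A of both groups.

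Leaving out 1 library at a time, members called higher ranged from 0 to 26 and members called lower stayed at 0. Those at an unadjusted p under 0.05 ranged from 1 to 29 higher and from 0 to 1 lower, and the median from -2.43 to 4.16. Without activated A, Marco and Lyz1 fell under the filter. The log2 fold changes ranged as follows: Spic from -3.38 to 5.64, Vcam1 from -3.65 to 4.37, Cd5l from -4.18 to 3.39, Adgre1 from -2.58 to 5.21, Csf1r from -2.84 to 3.92, Itgad from -2.16 to 4.21, Treml4 from -3.13 to 4.95, Hpgd from -3.27 to 2.91, Cd163 from -2.48 to 4.47, Mrc1 from -3.17 to 5.68, Marco from -0.71 to 2.43, Slc40a1 from -5.61 to 5.12, Hmox1 from -2.32 to 3.54, Blvrb from -0.85 to 0.0068, Trf from -1.90 to 3.45, Apoe from -2.29 to 2.75, Slco2b1 from -2.72 to 5.17, C1qa from -2.13 to 3.88, C1qb from -2.95 to 3.95, C1qc from -2.38 to 3.64, Mertk from -3.06 to 5.70, Sirpa from -0.57 to 6.97, Fcgr1 from -2.72 to 4.11, Fcgr3 from -3.28 to 3.47, Fcer1g from -0.090 to 5.38 and Cd14 from -1.45 to 4.28. Axl, Tyrobp, Lyz1, Lyz2, Cd68 and Lgmn kept their sign in each fit that held them. By limma-voom the sign also turned for Apoe (0.52), Spic (2.09), Hmox1 (0.87), Mertk (2.60), Cd5l (0.21), Fcgr1 (2.25), Slc40a1 (0.23), Mrc1 (2.04), Vcam1 (0.71), Slco2b1 (2.97), Hpgd (0.32), Trf (1.33), C1qa (1.33), C1qc (1.14), C1qb (0.97), Treml4 (1.65), Fcgr3 (0.78) and Itgad (1.56). On the regularized log values, with and without the replicate block, it turned for Apoe (0.16), Spic (0.71), Hmox1 (0.49), Mertk (0.65), Fcgr1 (0.024), Mrc1 (0.86), Vcam1 (0.30), Slco2b1 (0.38), Trf (0.33), C1qa (0.57), C1qc (0.39), C1qb (0.39), Treml4 (0.60), Fcgr3 (0.0078) and Itgad (0.64). Depth limits what B libraries can show: 3 counts stood for 0.0979 CPM in resting B and 0.148 CPM in activated B. The value of a library left out is that of a fit in which the remaining library is assumed to vary like the other group.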

Other observations

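Beyond the members, 49 of the 14235 genes tested were at least 8-fold higher in library A than in library B of both groups, of 66 in all. Of these 49, 6 were in one of the other lists read here, among them Clec4n and Hbb-bs. The opposite split, at least 8-fold higher in B of both groups, held for 7 genes (0.0492%). These genes were picked by that split after the values were seen, so their values are a description. The highest mean CPM was that of Fcna, which encodes ficolin A, a lectin that starts the lectin pathway of complement, with 830, 23, 961 and 37 counts in the resting pair (A, B) and the activated pair (A, B). Adgre4, an adhesion receptor related to F4/80, had 516, 8, 838 and 33 counts, and Igf1, a growth factor, 261, 14, 323 and 21 counts. The terminal complement component C6 had 171, 12, 179 and 3 counts and Hebp1, a heme-binding protein, 182, 10, 344 and 22 counts. The inhibitory receptors Pilra and Siglece had 273, 6, 429 and 21 counts and 135, 11, 254 and 7 counts. P2ry12, a purine receptor best known from microglia, had 75, 0, 177 and 7 counts, and the niacin receptor Hcar2 114, 0, 148 and 10 counts. Each of these 9 genes was low in both B libraries, as Vcam1 and Slc40a1 were.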
